A study of Mus musculus with 10 samples.

Results

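Prdm1, Prdm14, Tfap2c, Sall4, Dnd1, Nanos3, Alpl and Ifitm3 are 8 mouse genes known for the specification and survival of primordial germ cells, and they were followed through the embryonic testis. The 8 were listed by symbol for their known role, with earlier results of these data known. A probe set annotated to the symbol alone was found for 7 of the 8, and Nanos3 was not analysed here. Where a gene had several such probe sets, the one with the highest mean log2(signal + 16) over all arrays represented it. Of the 7 genes, 5 passed the filter on low values (a mean corresponding to a signal of 49.1), as did 10916 of the 18193 genes with a probe set of their own in the whole series. The other two, Prdm14 and Tfap2c, lay below that filter, with means corresponding to signals of 28.8 and 45.4. Their tests come from a fit without the filter, which is named beside each of their values.

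The study profiled gene expression over testis development. Affymetrix Mouse430_2 arrays were hybridised with biotin-labelled material made from total RNA. The RNA came from testes of mouse embryos at 5 stages, labelled E11.5 and E12.5, then E14.5, then E16.5 and lastly E18.5 by embryonic day. Each stage had 2 arrays made from independent preparations, which gives 10 arrays in all. The labels name no genotype, allele, strain or treatment, and all groups share the tissue. How many embryos were pooled, and whether the mesonephros was removed, is not given in the sources used here.

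Primordial germ cells are the founders of sperm and eggs. In the mouse, BMP signals from extraembryonic tissue induce the transcriptional regulators Prdm1 (also called Blimp1), Prdm14 and Tfap2c (AP-2 gamma) in a few epiblast cells. Together these repress the somatic programme and restore genes of pluripotency. Sall4 keeps the germ cells in their fate, Dnd1 and Nanos3 are RNA-binding proteins without which migrating germ cells die, and Alpl and Ifitm3 encode surface proteins by which the early cells are recognised. In the fetal testis the germ cells, once enclosed in cords, lose the pluripotency programme, stop dividing and become prospermatogonia.

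On all 10 arrays the deposited signals, linear intensities, had the same trimmed mean of 125, while medians ranged over arrays between 35.2 and 57.7, highest in E14.5 replicate 1. Arrays of a stage correlated with r of 0.963 to 0.980 over the tested genes. E14.5 was scanned on a day of its own, E12.5 and E16.5 shared a day and E11.5 and E18.5 shared a day, so scanning day and stage cannot be told apart between neighbouring stages. The comparisons E16.5 against E12.5 and E18.5 against E11.5 each lie within 1 day. In both, and in E16.5 against E14.5, the fluidics module differed with stage (modules 3 and 4 for E16.5 and E18.5, modules 1 and 2 for the earlier stages) and cannot be told apart from it. Actin 3' over 5' signal, which reads RNA quality, was 2.60 and 2.60 at E16.5, against 1.93 and 2.03 at E12.5, with no overlap. It was 1.87 and 2.62 at E18.5, against 1.84 and 1.57 at E11.5, and 1.64 and 2.50 at E14.5. Its part in the calls below was not tested. The summed signal of 15 germ cell markers was 4575.5 and 4014.5 (E11.5), 8349.4 and 6235.1 (E12.5), 8579.7 and 9969.4 (E14.5), 7202.3 and 5712.3 (E16.5) and 5033.4 and 4345.2 (E18.5). Some were dim early: Tex101 measured 1.8 to 4 and Tdrd1 2.2 to 4.4 at E11.5 and E12.5, under the filter signal of 49.1, while Dazl measured 102.7 and 195.3 at E11.5. Of the 13 tested, 8 rose and 4 fell in E18.5 against E11.5, against 28.2% of all tested genes called. The 8 that rose were Ddx4, Dazl, Mael, Piwil2, Mov10l1, Stk31, Sycp3 and Tdrd5. The 4 that fell were Pou5f1, Dppa3, Dppa5a and Rhox6.

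The 7 measured genes took different courses. Alpl was higher from E14.5 on, Dnd1 was higher at E16.5 but not at E18.5, Prdm14 and Tfap2c were lower in the later testis, and Prdm1, Sall4 and Ifitm3 passed in no comparison with all arrays included. In the moderated F test over the 5 stages (limma, Benjamini-Hochberg over the 10916 tested genes, threshold 0.05), 2 of the 5 tested genes changed, Alpl (adjusted p 0.00142) and Dnd1 (adjusted p 0.0137), against 34.7% of all genes. The F test of Dnd1 did not pass without E16.5 replicate 1 (adjusted p 0.0554) or E16.5 replicate 2 (adjusted p 0.105). Without the filter 4 of 7 changed, with Prdm14 and Tfap2c both at an adjusted p of 0.00231, against 20.9% of 18193 genes. Since every array averages over all cells of a testis preparation, fewer cells of a type and less RNA per cell cannot be told apart. Changes are given on the log2(signal + 16) scale, on which changes of dim genes come out smaller than on the signal itself.

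**Figure D1:**
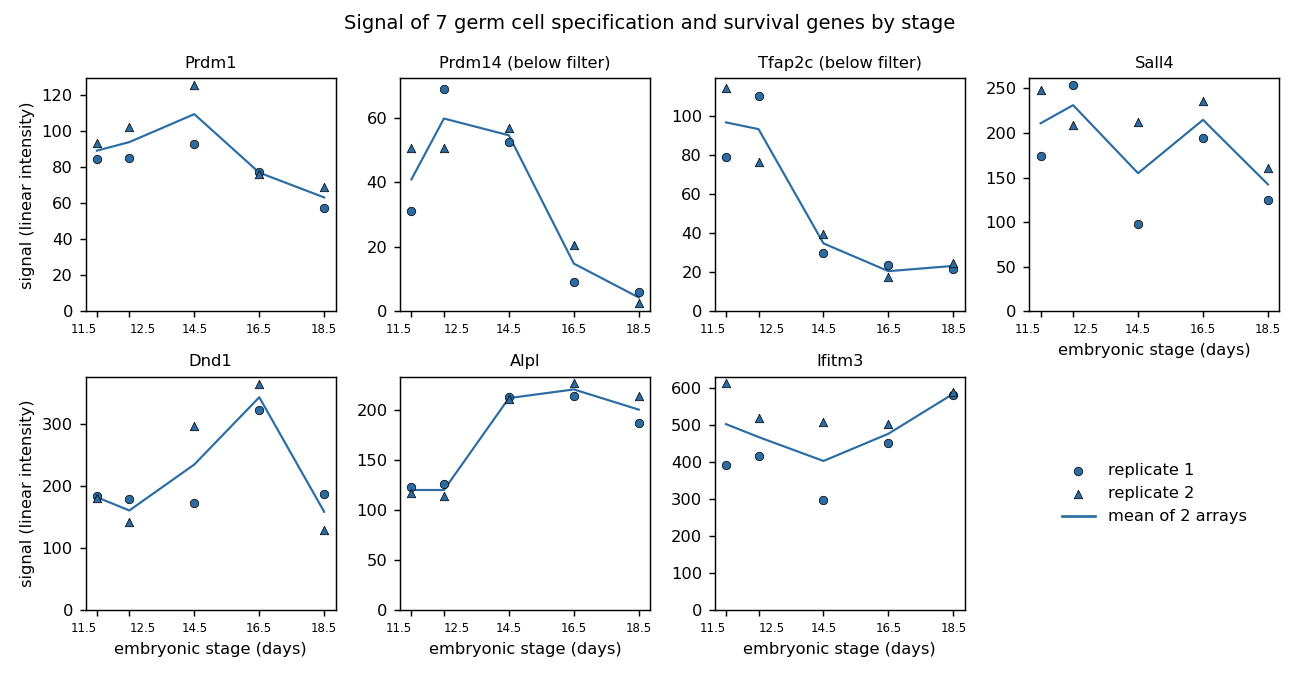
Signal (linear intensity, each panel with its own axis from 0) of the 7 measured genes against embryonic day, with 1 point per array and a line through the mean of the 2 arrays of a stage. Prdm14 is at 2.4 and 6.1 and Tfap2c at 21.9 and 24.6 on the E18.5 arrays, Alpl lies above 186 on every array from E14.5 on, and Dnd1 is highest on both E16.5 arrays.

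Prdm14, a PR domain protein that represses DNA methylation and FGF signalling genes in germ cells, had the lowest signals of the group at the end of the period. It measured 31.2 and 50.5 (E11.5), 68.8 and 50.6 (E12.5), 52.3 and 56.7 (E14.5), 9.1 and 20.4 (E16.5) and 6.1 and 2.4 (E18.5). Every array of the 3 early stages lay above every array of the 2 late ones, and the E16.5 and E18.5 arrays did not overlap either. Prdm14 fell in E18.5 against E11.5 (log2 -1.47, SE 0.279, 95% confidence interval -2.09 to -0.857, limma adjusted p 0.0045 without the filter). It also fell in E16.5 against E12.5 (log2 -1.31, SE 0.279, adjusted p 0.00999 without the filter), a call lost without E12.5 replicate 1 (adjusted p 0.0846) or E16.5 replicate 1 (adjusted p 0.0907). The step in which it fell was E16.5 against E14.5 (log2 -1.22, adjusted p 0.0326 without the filter). That call was lost under 10 of 20 alternatives, among them leaving out any one array of E14.5, E16.5 or E18.5 (adjusted p 0.0512 to 0.183). In E18.5 against E16.5 the log2 change was -0.58 (95% confidence interval -1.20 to 0.0329), which did not pass. The size of the E18.5 against E11.5 change depended on the pseudocount, with log2 values between -3.05 and -0.61 over 20 alternatives, all of which kept the call.

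Tfap2c, an AP-2 family transcription factor that acts downstream of Prdm1 in germ cell specification, was lower from E14.5 on. Its probe set with the highest mean, 1436392_s_at, measured 79.2 and 114.6 (E11.5), 110.3 and 76.6 (E12.5), 29.8 and 39.8 (E14.5), 23.7 and 17.4 (E16.5) and 21.9 and 24.6 (E18.5). All 4 arrays of E11.5 and E12.5 lay above all 6 later arrays, while the arrays of E16.5 and E18.5 overlapped. Tfap2c fell in E18.5 against E11.5 (log2 -1.51, SE 0.265, 95% confidence interval -2.09 to -0.921, limma adjusted p 0.0029 without the filter) and in E16.5 against E12.5 (log2 -1.57, SE 0.265, adjusted p 0.00314 without the filter). Both calls held under all 20 alternatives run. In E14.5 against E12.5 the log2 change was -1.10 (95% confidence interval -1.68 to -0.511), which did not pass over all genes (adjusted p 0.0577 without the filter) but passed under 5 of 20 alternatives. The suffix of this probe set marks, in Affymetrix naming, probes shared by several transcripts. The other two probe sets of the gene pointed the same way. Probe set 1418147_at measured 2.7 and 12 at E18.5, against 49.9 and 56.7 at E11.5 (log2 -1.60, adjusted p 0.00109), and it passed in E14.5 against E12.5 as well (log2 -1.25, adjusted p 0.0262). Probe set 1448977_at measured 26.5 and 16.1 at E18.5, against 49.0 and 61.5 at E11.5 (log2 -0.94, adjusted p 0.0379).

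**Figure D2:**
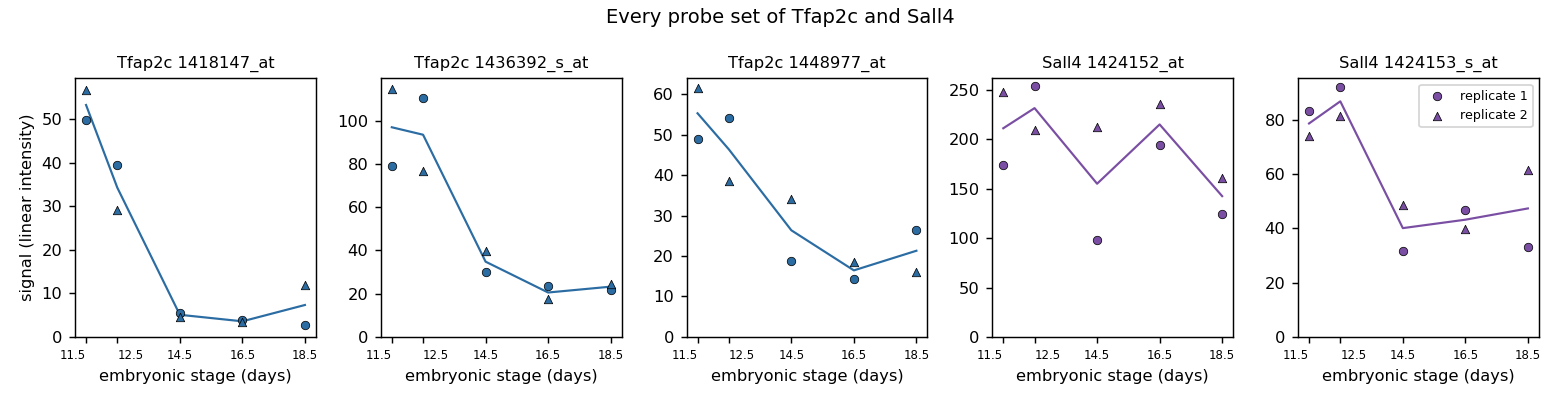
Signal (linear intensity, each panel with its own axis from 0) of all 3 probe sets of Tfap2c and both of Sall4 against embryonic day, 1 point per array and a line through stage means. The 3 Tfap2c probe sets are lower at E16.5 and E18.5 than at E11.5, while for Sall4 the E16.5 arrays are at 194.0 and 235.6, against 253.5 and 209.1 at E12.5, on 1424152_at, and at 46.6 and 39.8, against 92.2 and 81.4 at E12.5, on 1424153_s_at.

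Prdm1, the PR domain repressor that starts the germ cell programme and also acts in plasma cells and epithelia, passed in no comparison. It measured 84.7 and 93.4 (E11.5), 85.2 and 102.4 (E12.5), 92.9 and 125.7 (E14.5), 77.4 and 76.3 (E16.5) and 57.5 and 68.7 (E18.5). The first 3 stages overlapped in the order of means, and E16.5 and E18.5 lay below them without overlap. Neither late stage passed: the log2 change was -0.41 in E18.5 against E11.5 (95% confidence interval -0.849 to 0.0256, limma adjusted p 0.152) and -0.24 in E16.5 against E12.5 (95% confidence interval -0.675 to 0.20, adjusted p 0.417). None of 21 alternatives called Prdm1 in any of the 6 comparisons.

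Sall4, a zinc finger protein shared by germ cells and pluripotent stem cells, gave different pictures on its 2 probe sets. The representative one, 1424152_at, measured 173.9 and 248.0 (E11.5), 253.5 and 209.1 (E12.5), 97.6 and 212.2 (E14.5), 194.0 and 235.6 (E16.5) and 124.4 and 160.3 (E18.5). Neighbours in the order of stage means (E12.5, E16.5, E11.5, E14.5, E18.5, high to low) overlapped throughout, and the E14.5 arrays stood furthest apart. Both E18.5 arrays lay below every array of E11.5, E12.5 and E16.5. Its log2 change was -0.10 in E16.5 against E12.5 (95% confidence interval -0.699 to 0.50) and -0.51 in E18.5 against E11.5 (95% confidence interval -1.11 to 0.0903), and neither passed (limma adjusted p 0.824 and 0.196). Without E14.5 replicate 2 it would be called lower in E14.5 against E12.5 (log2 -1.12, adjusted p 0.0278) and higher in E16.5 against E14.5 (log2 1.02, adjusted p 0.0297). Probe set 1424153_s_at, dimmer throughout, measured 83.2 and 74.1 (E11.5), 92.2 and 81.4 (E12.5), 31.5 and 48.7 (E14.5), 46.6 and 39.8 (E16.5) and 33.1 and 61.6 (E18.5). All 6 of its later arrays lay below its 4 early ones. Its log2 change in E16.5 against E12.5 was -0.80 (adjusted p 0.0764 without the filter), which did not pass either. The difference between the probe sets was not tested.

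Dnd1, an RNA-binding protein that protects messages of migrating germ cells and whose loss causes germ cell death and testicular tumours in some mouse strains, peaked at E16.5. It measured 183.2 and 180.1 (E11.5), 178.7 and 142.0 (E12.5), 171.6 and 297.2 (E14.5), 322.2 and 363.3 (E16.5) and 187.2 and 129.0 (E18.5). Both E16.5 arrays lay above all 8 others, and the E14.5 arrays spanned most of the range between. Dnd1 rose in E16.5 against E12.5 (log2 1.03, SE 0.237, 95% confidence interval 0.521 to 1.54, limma adjusted p 0.00616), a 2.04-fold change. The call held under 21 of 22 alternatives and was lost without E16.5 replicate 2 (adjusted p 0.0633). In that comparison, in which the actin ratio was higher as well, 2 of the 5 tested genes rose, Dnd1 and Alpl, against 27.1% of all genes called and 16.8% called higher. Without the filter 4 of 7 were called, 2 higher and 2 lower, against 15.5% of all genes called and 5.12% called lower. On the way there, E16.5 against E14.5 did not pass (log2 0.56, adjusted p 0.143), although it passed without E14.5 replicate 2 (log2 0.93, adjusted p 0.0325) and with median scaling (adjusted p 0.0463). On the way down, E18.5 against E16.5 had a log2 change of -1.06 (95% confidence interval -1.57 to -0.552) with an unadjusted p of 0.000556, which did not pass over all genes (adjusted p 0.245) in a step where limma called 0.0183% of them. At the ends of the period the levels overlapped (log2 -0.20 in E18.5 against E11.5, 95% confidence interval -0.713 to 0.306).

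Alpl encodes tissue-nonspecific alkaline phosphatase, the enzyme whose staining was long used to find germ cells, and it is also made by mineralising tissue and other cells. It measured 122.7 and 116.7 (E11.5), 125.5 and 113.9 (E12.5), 212.1 and 210.7 (E14.5), 213.5 and 226.6 (E16.5) and 186.8 and 213.0 (E18.5). The arrays thus formed a low group of 4 at E11.5 and E12.5 and a higher group of 6 from E14.5 on, with no overlap. RefSeq gives Alpl 2 start sites on the minus strand of chromosome 4, and the single probe set does not tell them apart. The 250 bases before each start are shown (build GRCm38.p6, 5′ to 3′), because Alpl rose in 3 of the comparisons. Capitals mark matches to GCCNNNGGC, the motif bound by the protein of Tfap2c, which reads the same on both strands. An effect of Tfap2c on Alpl was not tested.
Alpl upstream start, chr4:137796385-137796634: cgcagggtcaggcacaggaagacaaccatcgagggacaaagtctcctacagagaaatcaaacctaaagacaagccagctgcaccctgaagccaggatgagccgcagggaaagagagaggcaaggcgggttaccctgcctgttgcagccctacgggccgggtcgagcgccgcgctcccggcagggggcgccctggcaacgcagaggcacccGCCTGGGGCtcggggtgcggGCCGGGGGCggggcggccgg
Alpl downstream start, chr4:137766476-137766725: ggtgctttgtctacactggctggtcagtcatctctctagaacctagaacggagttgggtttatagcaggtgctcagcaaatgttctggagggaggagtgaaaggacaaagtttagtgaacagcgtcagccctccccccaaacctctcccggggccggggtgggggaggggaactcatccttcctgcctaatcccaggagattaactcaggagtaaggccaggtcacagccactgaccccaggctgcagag
The upstream window, with a GC content of 68.4%, holds 2 matches, whose first bases lie at -40 and -20 from the start. The downstream window, with a GC content of 56.0%, holds none. Of 32851 such windows over all genes 13.7% hold the motif, and their median GC content is 52.4%. Matches to the PRDM14 motif GGTCTCTAA (0.24% of windows) and the PRDM1 motif AGNGAAAGT (1.18% of windows), searched on both strands, are in neither Alpl window. Windows were also given for Prdm1, Ifitm3 and Nanos3, and the only match among them was 1 to GCCNNNGGC before Nanos3, at -221. A match describes letters in a window and was not tested for binding.

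The step in which Alpl rose was E14.5 against E12.5 (log2 0.75, SE 0.160, 95% confidence interval 0.402 to 1.09, limma adjusted p 0.0164), a 1.68-fold change. It was the 1 of 5 tested genes called there, against 5.26% of all genes called and 3.53% called higher. With each array scaled to its median, which shifts the median change of all genes to -0.29 in this step, the log2 change was 0.42 and did not pass (adjusted p 0.179). Leaving out E12.5 replicate 1, E12.5 replicate 2 or E14.5 replicate 1 ended the call as well (adjusted p 0.0829 to 0.101). Within 1 scanning day, Alpl rose 1.74-fold in E16.5 against E12.5 (log2 0.80, SE 0.160, adjusted p 0.00253), and this call held under all 22 alternatives. It rose 1.59-fold in E18.5 against E11.5 (log2 0.67, SE 0.160, adjusted p 0.00679), where it was the 1 of 5 called, against 28.2% of all genes called and 17.1% called higher. That call was lost without E18.5 replicate 2 (adjusted p 0.0681) and with median scaling (adjusted p 0.0701). Without the filter 3 of 7 genes were called in E18.5 against E11.5, Alpl higher and Prdm14 and Tfap2c lower, against 17.5% of all genes called and 6.39% called lower.

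Genes of other possible sources of Alpl changed in some of the same comparisons. The summed signal of 6 measured genes of mineralising tissue and fibroblasts was 2688 and 3025.7 (E11.5), 3882.6 and 5088.1 (E12.5), 8350 and 9681.1 (E14.5), 11402 and 12045 (E16.5) and 13561 and 13273 (E18.5). In E12.5 against E11.5 Dcn rose (adjusted p 0.00452, lost without E12.5 replicate 2 and when probe sets are averaged), against 3.27% of all genes called. Of the 5 tested, 3 rose in E14.5 against E12.5 (Dcn, and Col1a1 and Col1a2, both lost without E12.5 replicate 1 and Col1a2 with median scaling too) and 4 in each of E16.5 against E12.5 and E18.5 against E11.5. Over all tested genes, 5.26% were called in E14.5 against E12.5, 27.1% in E16.5 against E12.5 and 28.2% in E18.5 against E11.5. Both arrays of E16.5 and of E18.5 had a higher sum than those of E14.5. The log2 change of Alpl in E16.5 against E14.5 was 0.05 (95% confidence interval -0.29 to 0.397). The osteoblast factor Sp7 measured 47.1 and 63.1 (E11.5), 47.7 and 82.5 (E12.5), 103.2 and 76.8 (E14.5), 79.2 and 47.7 (E16.5) and 46.2 and 38.2 (E18.5). Its log2 change in E14.5 against E12.5 was 0.41, which did not pass (limma adjusted p 0.397). The bone protein Ibsp, below the filter, measured 50.4 and 29.4 (E11.5), 37 and 28.5 (E12.5), 53 and 54.9 (E14.5), 17.6 and 28 (E16.5) and 18.3 and 24.9 (E18.5). The part of these cells in the change of Alpl was not tested.

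**Figure D3:**
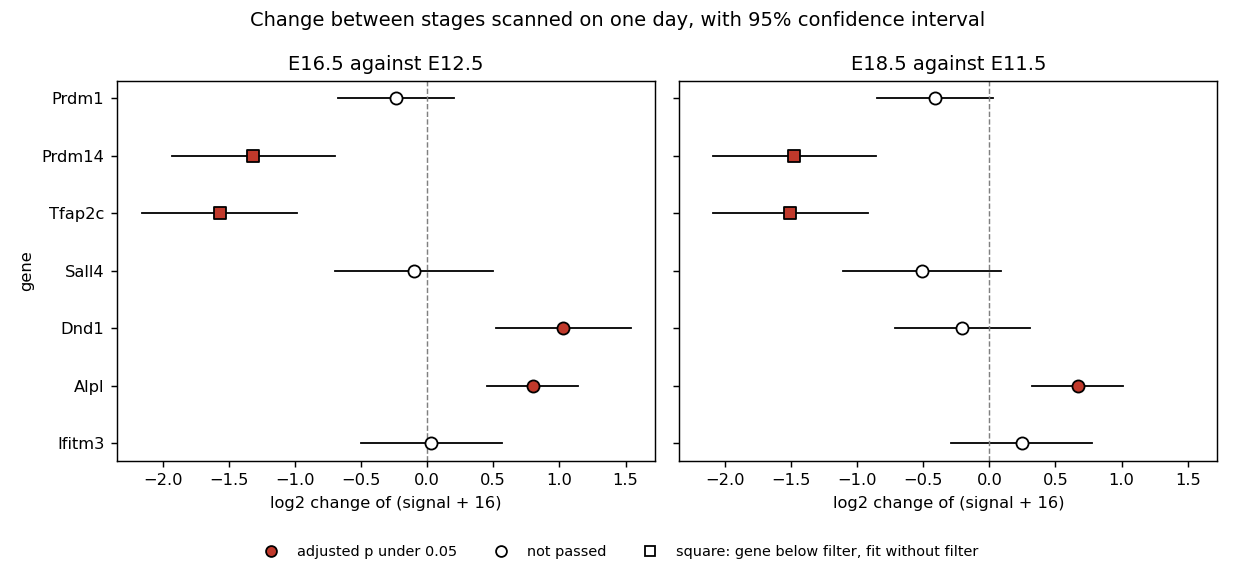
Log2 change of (signal + 16) with its 95% confidence interval for the 7 measured genes in the comparisons that lie within 1 scanning day, E16.5 against E12.5 and E18.5 against E11.5. Filled symbols passed an adjusted p of 0.05 and squares are genes below the filter, tested without it. Prdm14 and Tfap2c lie left of 0 and Alpl right of 0 in both panels, and Dnd1 is at 1.03 in the first panel and -0.20 in the second.

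Ifitm3 (also called fragilis), an interferon-inducible membrane protein that marks cells competent to become germ cells, had the highest signals of the group and passed in no comparison of stages. It measured 390.9 and 612.6 (E11.5), 416.8 and 517.0 (E12.5), 297.5 and 507.1 (E14.5), 450.6 and 501.0 (E16.5) and 579.9 and 587.8 (E18.5). Every neighbouring pair in the order of stage means overlapped, and the spread was largest between the arrays of E11.5 and between those of E14.5. In E18.5 against E11.5 the log2 change was 0.25 (95% confidence interval -0.286 to 0.779, limma adjusted p 0.50), and in E16.5 against E12.5 it was 0.03 (95% confidence interval -0.50 to 0.565, adjusted p 0.94). No alternative of 22 called it between any of the stages compared. With the fluidics module as a term its F test passed (adjusted p 0.046). That term compares module 1 with 2 and module 3 with 4 only. It cannot adjust a difference between the early and late stages, which used different modules. Ifitm1, of the same family, took another course. It measured 4768.7 and 4645 (E11.5), 2068.7 and 1593.6 (E12.5), 1101.5 and 1704 (E14.5), 440.9 and 536.6 (E16.5) and 841.3 and 715.2 (E18.5). Ifitm1 fell 5.96-fold in E18.5 against E11.5 (log2 -2.58, adjusted p 8.89e-07), 3.65-fold in E16.5 against E12.5 and 2.58-fold in E12.5 against E11.5 (adjusted p 0.00234), with no alternative of 22 ending any of these calls. Ifitm2 measured 2038.7 and 2430.3 at E18.5, against 2897.7 and 2870.5 at E11.5, which did not pass (adjusted p 0.114). The difference between the family members was not tested. Of 4 tested interferon response genes, Ifi27 and Bst2 (lost without E18.5 replicate 2) rose in E18.5 against E11.5 and the others did not pass. Over all tested genes, 28.2% were called in that comparison.

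In 3 of the 4 successive steps limma called none of the 5 tested genes. In E12.5 against E11.5 the count was 0, against 3.27% of all genes called. At an unadjusted p under 0.05 the count was also 0, against 1565 of the 10916 genes. In E16.5 against E14.5 the count was 0, against 10.8% of all genes called. At an unadjusted p under 0.05 it was 1 (Dnd1), against 2940 of the 10916 genes. Prdm14 was the 1 of 7 called there without the filter, against 5.62% called and 1.83% called lower. In E18.5 against E16.5 the count was 0, against 0.0183% of all genes called. At an unadjusted p under 0.05 it was 1 (again Dnd1), against 538 of the 10916 genes. The median log2 change of the 5 was -0.20 in E18.5 against E11.5 and 0.03 in E16.5 against E12.5, beside medians of 0.02 and 0.06 over all tested genes.

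Of the partners of these regulators and the genes of the pluripotent germ cell state, 9 of the 18 tested fell and 2 rose in E18.5 against E11.5, against 28.2% of all genes called. The other 7 did not pass. The list had a median log2 change of -0.70, beside 0.02 for all genes. Over the alternatives, some of which test fewer genes, 5 to 9 were lower and 1 to 3 higher. Among the partners, Prmt5, an arginine methyltransferase that binds Prdm1, fell (log2 -1.10, adjusted p 0.00114). Ehmt2, a histone methyltransferase, rose (log2 0.48, adjusted p 0.0448, lost under 12 of 22 alternatives, among them leaving out E11.5 replicate 1 or any one array of E12.5, E16.5 or E18.5), while Wdr77, Cbfa2t2 and Ehmt1 did not pass. Dppa5a, an RNA-binding protein of pluripotent cells, measured 105.7 and 112 at E18.5, against 2767.7 and 2296.5 at E11.5 (20.3-fold lower, limma adjusted p 6.93e-09). Dppa3 (Stella), which protects the maternal genome from demethylation after fertilisation, measured 79.4 and 50.7 at E18.5, against 733.7 and 570.4 at E11.5 (8.31-fold lower, adjusted p 1.44e-06). Sox2, a core pluripotency factor, measured 20.5 and 23.9 at E18.5, against 197.7 and 274.7 at E11.5 (log2 -2.71, adjusted p 1.53e-06). Klf4, a factor also made by somatic testis cells, rose to 176.8 and 271.8 at E18.5, against 38.8 and 39.1 at E11.5 (log2 2.10, and 1.47 to 2.46 over the alternatives, adjusted p 1.1e-05). None of the alternatives ended the call of any of these 4 genes in E18.5 against E11.5.

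Among successive steps, most of these calls lay in E16.5 against E14.5, the step in which Prdm14 was also called lower without the filter. There 6 of 18 fell and 2 rose, against 10.8% of all genes called. For the comparisons given below, 5.26% of all genes were called in E14.5 against E12.5 and 27.1% in E16.5 against E12.5. Dppa5a measured 191.3 and 125 at E16.5, against 2232.2 and 2703.5 at E14.5 (log2 -3.85, adjusted p 4.59e-07), and Nanog measured 17.8 and 13.1, against 77.9 and 92.5 (log2 -1.69, adjusted p 0.00133). The late signals of Nanog and Sox2 lay under the filter signal of 49.1, so the size of their changes depends on the pseudocount. Over the alternatives the log2 change of Nanog in this step was -1.79 to -0.908, and that of Sox2 in E18.5 against E11.5 was -3.34 to -1.79. Over the alternatives the count in this step ranged from 2 to 7 genes lower and 0 to 2 higher. In E14.5 against E12.5, where stage means of all 3 Tfap2c probe sets were lower, 0 of the 18 fell and only Dppa4 rose (log2 1.05, adjusted p 0.0239, lost under 5 of 22 alternatives, among them without E12.5 replicate 2 or either E14.5 array). Sox2 (log2 -0.83, adjusted p 0.0618) and Dppa5a (log2 -0.64, adjusted p 0.0981) were lower and Dppa3 was higher (log2 0.79, adjusted p 0.10) without passing. Some alternatives called genes of the list lower in this step. In E16.5 against E12.5, within 1 scanning day, 8 fell and 3 rose (range 4 to 9 lower and 2 to 4 higher over the alternatives).

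**Figure D4:**
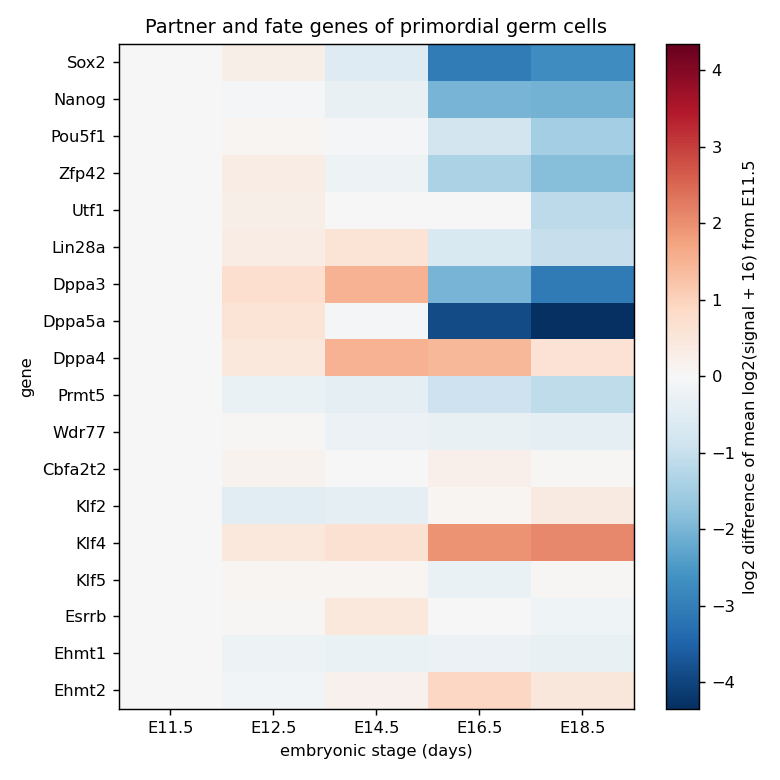
Difference of the mean log2(signal + 16) of each stage from E11.5 for the 18 tested partner and fate genes of primordial germ cells, as a colour from blue (lower) to red (higher), with stages from left to right. Sox2, Nanog, Dppa3 and Dppa5a turn deep blue at E16.5 and E18.5, with Dppa5a at -4.34 by E18.5, while Klf4 turns red at the same stages.

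Signals that induce germ cells, and genes that keep them alive or guide them, split in direction. Over all tested genes, 28.2% were called in E18.5 against E11.5. In E18.5 against E11.5, 3 of the 10 tested induction genes fell and 2 rose (median log2 0.01), with 1 to 4 lower and 1 to 3 higher over the alternatives, some of which test fewer genes. Bmp2, a ligand of the pathway, measured 29 and 24.6 at E18.5, against 171.9 and 97.6 at E11.5 (log2 -1.77, and -2.24 to -1.10 over the alternatives, adjusted p 0.000279), and Smad5, a transducer of BMP signals, fell 1.91-fold (adjusted p 0.00089). The receptor subunit gene Bmpr2 rose 1.84-fold (adjusted p 0.0015, a call that ends when probe sets are averaged) and Il6st, the shared receptor of LIF and related cytokines, rose 2.36-fold (adjusted p 0.000356). The third gene that fell was Bmp4, named here after its values were seen. Its call was lost without E18.5 replicate 2 and with the fluidics module block, which cannot adjust this comparison for module. Among 12 tested genes of survival and homing, 2 rose and 2 fell (median log2 0.04), with 1 to 2 higher and 0 to 4 lower over the alternatives. Cxcl12, the chemokine that attracts migrating germ cells, measured 2451.8 and 2321.6 at E18.5, against 347.4 and 446.9 at E11.5 (5.86-fold, adjusted p 2.11e-07). Its log2 change was 2.55, and 0.857 to 2.72 over the alternatives. Kit, the receptor for stem cell factor on germ cells, fell 1.98-fold (adjusted p 0.00156), and Cdh1, which encodes E-cadherin, fell 1.80-fold (adjusted p 0.0215, lost under 4 of 21 alternatives, among them without E11.5 replicate 2 or E18.5 replicate 1). Elavl2, an RNA-binding protein, rose 2.01-fold (adjusted p 0.00432, lost without E18.5 replicate 1). The ligand of Kit, Kitl, did not pass over the whole period (log2 -0.40, adjusted p 0.134). Kitl fell in E14.5 against E12.5 (log2 -0.76, adjusted p 0.0335, lost under 9 of 22 alternatives, among them leaving out any one array of E12.5, E14.5 or E16.5), and its F test passed (adjusted p 0.00146).

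Paralogs of the 7 measured genes were looked up as well. Of 27 with a probe set, 11 passed the filter, against 10916 of the 18193 genes in the whole series. Of the 11 paralogs, 2 were called in E18.5 against E11.5, against 28.2% of all genes called. They were Ifitm1, given above, and Rbm46, an RNA-binding protein of germ cells related to Dnd1. Rbm46 measured 308.1 and 348.2 at E18.5, against 65 and 98.3 at E11.5 (3.57-fold, adjusted p 8.07e-05), and rose 2.30-fold in E16.5 against E12.5 (adjusted p 0.00289). Dnd1 itself overlapped between E18.5 and E11.5, as given above.

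For each of the 5 tested genes, the genes most like it over the 10 arrays were sought among all tested genes by Pearson's r of log2(signal + 16), as a description that shares stage, array and scanning day. Alpl was followed by Tex19.2 (r 0.971), Gpaa1 (0.969) and Rasl11b (0.968). Tex19.2, a gene of germ cells and placenta, measured 173.7 and 134 at E18.5, against 39.6 and 46.6 at E11.5. Dnd1 was followed by Cog4 (0.921), AI854703 (0.902) and Pgm3 (0.875). Prdm1 was followed by Rbm27 (0.965), L3mbtl2 (0.963) and Plaa (0.949). Ifitm3 was followed by Golph3 (0.936), Nav2 (0.935) and Kif16b (0.935), and Sall4 by Stard10 (0.962), Chtop (0.947) and Dhx9 (0.924). Each gene named for Dnd1, Prdm1, Ifitm3 and Sall4 had a lower signal in E14.5 replicate 1 than in replicate 2. So did Tex19.2 and Rasl11b, but not Gpaa1.

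Markers of other cells moved over the same comparisons, and their part in the changes above was not tested. In E18.5 against E11.5, where 28.2% of all tested genes were called, 7 of 11 tested Sertoli cell genes rose and 1 fell. All 5 fetal Leydig cell genes rose, 4 of 4 smooth and peritubular muscle genes rose, and 3 of 4 erythroid genes fell. The 3 that fell were the globin genes Hbb-bh1, Hba-x and Hbb-y. With them, the summed signal of 5 erythroid genes was 361.6 and 229.2 at E18.5, against 27544 and 23931 at E11.5. The other tested erythroid gene, Alas2, measured 223.1 and 194.9 at E18.5, against 144.5 and 162.4 at E11.5, which did not pass. Alas2 rose in E16.5 against E12.5 (log2 1.61, limma adjusted p 5.47e-05). Hba-a1 lay below the filter. Of the 2 tested mesonephros genes, Emx2 fell to 92.9 and 102.5 at E18.5, against 1580.3 and 1113.9 at E11.5, and Pax8 did not pass (adjusted p 0.145). The other 3 measured lay below the filter. Macrophage and leukocyte genes (1 of 6 rose) and endothelial genes (1 of 7 rose and 1 fell) had other counts.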

How the data were processed

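Values came from the deposited table of 1 linear intensity per probe set and array, made by the authors with software not given in the sources used here. Trizol extraction and biotin labelling are stated per the labels. The other deposited files, which hold scanner and fluidics settings, per the file headers, were read for array type, scanning day and module. The number of arrays limits the precision.

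Of 45101 probe sets, 34958 had 1 gene symbol, 932 several and 9211 none. Symbols were updated through RefSeq (GRCm38.p6), by Entrez number for 34754 and by accession for 1, and 203 kept the platform's symbol. Values were analysed as log2(signal + 16), computed here from the deposited intensities, by limma 3.58.1 (R 4.3.3). Genes whose mean lay under the 40th percentile were left out. Stage was the only term of 1 linear model over the 10 arrays (lmFit, eBayes with a trend, 5 residual and 8.59 prior degrees of freedom), with two-sided contrasts and Benjamini-Hochberg adjustment over all tested genes. The procedure was tested on simulated data with independent normal errors and no array or scanning day effect. Of changes of log2 1 put in, 83% to 88% were recovered over the comparisons. False calls were 4.12% to 7.5% of the calls made, highest in E16.5 against E14.5. Promoter windows came from RefSeq.

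The genes named are the 8 germ cell genes, up to 4 genes per list and comparison with the smallest adjusted p, the marker genes, and the 3 genes most like each tested gene. The members and lists were chosen with earlier results of these data known. Alternatives changed the pseudocount (1 and 64), the filter, the probe set rule, the scaling, the variance trend, the blocks and the stages fitted, or left out each array in turn.

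Replicate numbers are in the titles. The correlation of deviations between same-numbered arrays of 2 stages was 0.00444 to 0.366, so the numbers were not taken to pair the samples.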

Additional observations from a re-analysis of the deposited data

How the results depend on the processing

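The number of arrays, 2 per stage, limits every result, and no direction of a called change in the 7 genes turned under any alternative. Prdm14 and Tfap2c were below the filter, so their alternatives were run without it and were chosen after seeing the data, as was the fluidics module block. Counts of genes called over all tested genes were 3783 in the F test, 357 in E12.5 against E11.5, 574 in E14.5 against E12.5, 1181 in E16.5 against E14.5, 2 in E18.5 against E16.5, 3076 in E18.5 against E11.5 and 2954 in E16.5 against E12.5. With the replicate block they were 898 in E14.5 against E12.5, 1783 in E16.5 against E14.5 and 4 in E18.5 against E16.5, and the block changed no call of the 5 tested genes. With the fluidics module block they were 566 in E12.5 against E11.5, 1003 in E14.5 against E12.5 and 16 in E18.5 against E16.5. That block cannot adjust comparisons between the early and late stages, whose modules differ. Median scaling gave 1045 in E14.5 against E12.5 (17.4% of calls higher, against 67.1% as deposited), 1782 in E16.5 against E14.5 (93.6%, against 71.1%) and 4 in E18.5 against E16.5. It moved the median of all genes to -0.294 and 0.288 in the first and the second of these steps. The stricter filter gave 365 in E14.5 against E12.5. Fitting the compared stages only gave 158 in E12.5 against E11.5. In E18.5 against E16.5 the count was 13 with a pseudocount of 64, 5 with the stricter filter, 4 with the mean of probe sets, 5 without _x_at and _s_at probe sets, 5 with the compared stages only, and 0 with no filter or no variance trend. Among the germ cell genes, no filter gave 4 in the F test, 1 in E16.5 against E14.5, 3 in E18.5 against E11.5 and 4 in E16.5 against E12.5. Median scaling gave 0 in E14.5 against E12.5, 1 in E16.5 against E14.5 and 0 in E18.5 against E11.5. Leaving out 1 array at a time gave counts over all genes of 148 to 368 in E12.5 against E11.5, 183 to 838 in E14.5 against E12.5, 168 to 1436 in E16.5 against E14.5, 0 to 4 in E18.5 against E16.5, 1943 to 3291 in E18.5 against E11.5 and 1204 to 3299 in E16.5 against E12.5. Among the 5 germ cell genes it gave 1 to 3 in the F test, 0 to 2 in E14.5 against E12.5, 0 to 2 in E16.5 against E14.5, 0 to 1 in E18.5 against E11.5 and 1 to 2 in E16.5 against E12.5. The scanning day as a random block was not run, because each day is a union of stages and its correlation could not be fitted. The cause of these differences was not tested.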
